A study of Mus musculus with 2 samples.

Results

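The light-chain variable genes are the gene segments from which a B cell builds the antigen-binding end of its immunoglobulin light chain. They were taken as every feature whose symbol starts with Igkv or Iglv and a digit, which gave 163 of the 32285 features in the tables, 160 of the kappa locus and 3 of the lambda locus. In a developing B cell the RAG recombinase joins 1 V segment to a J segment, and splicing places the joined exon in front of a constant exon, Igkc for kappa or one of Iglc1, Iglc2 and Iglc3 for lambda. Kappa is usually rearranged before lambda, most mouse light chains are kappa, and a B cell as a rule expresses a light chain from a single rearranged allele. The V gene with most transcripts in a cell is used here as a label of that cell, and the number of cells per V gene as a description of V gene use. Whether the rearranged gene of a cell encodes a complete receptor was not tested. The cells include precursors and cells with a second V gene, which are counted below.

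The cells came from the dorsal meninges of male C57BL/6 mice (C57BL/6J in the study's methods), 10 weeks old in one label and 10 to 12 weeks in another, which received a mild closed-skull traumatic brain injury (TBI) or a Sham procedure 1 week before collection. The tissue did not include the impact site. Each condition was 1 library, pooled from 5 mice, of live sorted single cells, labelled as prepared with 10x Genomics 3′ version 2 chemistry, so the difference between conditions has no replicate check and none was tested. All intervals are exact (Clopper-Pearson) binomial 95% intervals unless stated otherwise, and they cover counting error only.

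Within the cell filters of the study, 2043 Sham and 3773 TBI cells remained, and 476 Sham and 465 TBI cells had at least 1 unique molecular identifier (UMI, 1 counted transcript) of Cd79a, a signalling subunit of the B cell receptor. These Cd79a-positive cells were the B cells examined. They held 1604507 and 1461010 UMIs, with medians of 3123 and 2734 UMIs per cell. Among the other B cell markers, the shares of Sham and TBI cells with a UMI were as follows: Cd79b in 94.1% and 93.8%, Ebf1 in 90.8% and 89.2% and Ms4a1 in 75.2% and 66.2%. Of the 6 plasma cell genes listed, Jchain and Tnfrsf17 each had 0 UMIs in the Sham and 3 in the TBI cells, and Prdm1 had 2 and 1. Sdc1 was found in 4.20% and 4.09% of cells, Xbp1 in 27.5% and 29.0%, and Mzb1, which is also known from other B cells, in 55.0% and 52.0%. At least 2 UMIs of a macrophage, T cell, fibroblast, endothelial or plasmacytoid list were present in 47 Sham (9.87%) and 74 TBI (15.9%) cells, and Pecam1 alone was found in 23.3% and 21.7%. The part of these cells in the results below was examined by leaving them out, with values in the closing section. The 4 red cell genes listed were found in more Sham than TBI cells, from Hbb-bs in 77.9% and 33.8% to Hbb-bt in 31.9% and 8.82%, and their part in the results was not tested. The libraries shared 20 barcodes, none of which was Cd79a-positive in both.

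Positions were read from the GENCODE vM21 annotation (GRCm38, the assembly also called mm10), in which all 163 genes were found, 103 as functional V genes and 60 as pseudogenes. The kappa genes span 3149 kb on chromosome 6, from 67555497 to 70704177, and Igkc lies 22.3 kb beyond the nearest of them, at 70726435 to 70726966. The lambda locus is on the minus strand of chromosome 16. In the direction of transcription it runs from Iglv2 (19260401 to 19260859) through Iglv3 (19241207 to 19241690), Iglc2, Iglv1 (19085017 to 19085500) and Iglc3 to Iglc1. A V gene consists of a short leader exon and a longer exon that encodes the rest of the variable domain.

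The 10 genes with most cells were Iglv1, Igkv1-135, Igkv1-117, Igkv10-96, Igkv19-93, Igkv12-44, Igkv1-110, Iglv2, Igkv9-120 and Igkv8-30. The 3′ ends of the coding exon of 6 of them are shown because they are the stretch that joins to J, and so carry the germline part of the third complementarity-determining region. Each is 60 bases, 5′ to 3′ on the strand of the gene, and the capitals mark the last in-frame cysteine codon, after which the hypervariable part begins.
Igkv1-135: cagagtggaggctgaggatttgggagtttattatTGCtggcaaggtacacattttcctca
Igkv10-96: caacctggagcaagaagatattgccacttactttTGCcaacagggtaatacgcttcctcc
Igkv19-93: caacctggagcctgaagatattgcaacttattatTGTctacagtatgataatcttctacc
Igkv12-44: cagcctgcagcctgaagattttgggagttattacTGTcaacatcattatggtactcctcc
Igkv9-120: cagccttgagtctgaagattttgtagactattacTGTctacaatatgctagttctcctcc
Igkv8-30: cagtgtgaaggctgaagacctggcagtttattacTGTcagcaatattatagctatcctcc
In all 6, the codon was followed by 23 bases of germline sequence, and those 23 bases differed from gene to gene. These segments lie on chromosome 6 at 67610449 to 67610508 (Igkv1-135, plus strand), 68631963 to 68632022 (Igkv10-96, minus), 68736297 to 68736356 (Igkv19-93, minus), 69814631 to 69814690 (Igkv12-44, minus), 68050397 to 68050456 (Igkv9-120, plus) and 70117061 to 70117120 (Igkv8-30, minus).

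Several members are close copies of each other, which bears on how reads were divided between them. Of the leading genes, Iglv1 and Iglv2 were 96.7% identical and Igkv1-117 and Igkv1-110 were 97.5% identical over their transcripts. The last 98 bases of each are shown, as long as the sequenced read, with the bases that differ in capitals and positions counted from 1 at the 5′ end.
Iglv1: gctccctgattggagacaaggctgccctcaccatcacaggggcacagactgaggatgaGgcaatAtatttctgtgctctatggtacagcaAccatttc
Iglv2: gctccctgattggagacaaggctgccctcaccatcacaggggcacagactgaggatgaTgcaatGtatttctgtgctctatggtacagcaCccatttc
Igkv1-117: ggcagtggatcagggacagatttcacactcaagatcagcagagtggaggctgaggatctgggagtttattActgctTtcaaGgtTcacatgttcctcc
Igkv1-110: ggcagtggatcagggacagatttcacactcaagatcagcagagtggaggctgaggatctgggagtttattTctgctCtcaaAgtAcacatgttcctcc
From Iglv1 to Iglv2 the differences were G59T, A65G and A91C, and from Igkv1-117 to Igkv1-110 they were A71T, T77C, G82A and T85A. The lambda stretches lie on chromosome 16 at 19085017 to 19085114 and 19260401 to 19260498 (minus strand), and the kappa stretches on chromosome 6 at 68121730 to 68121827 and 68271170 to 68271267 (plus strand). Cut into all windows of 98 bases, 97.6% of the windows of Iglv1 and 97.8% of those of Iglv2 were found in no other member, against 82.7% for Igkv1-117 and 82.6% for Igkv1-110. Over all members, 111 had no window in common with another, and they were the top gene in 40.2% of Sham and 45.8% of TBI cells. The remaining 52 could share reads with a copy, and 3 of them shared most of their windows. These 3 were the top gene of 0 Sham and 2 TBI cells. The other 49 were the top gene of 250 Sham (59.8%) and 211 TBI cells (53.7%), so counts of single genes are uncertain for close pairs. The most alike pair of all, the pseudogenes Igkv3-6 and Igkv3-11 (98.8% identical), had no UMI in any Cd79a-positive cell.

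A light-chain V gene was read in nearly every mature B cell and in fewer of the precursors. At least 1 V UMI was found in 434 of 476 Sham cells (91.2%, 88.3 to 93.6) and 402 of 465 TBI cells (86.5%, 83.0 to 89.4). A mature gate, set by a UMI of the IgD gene Ighd, Fcer2a or Cr2 without any precursor gene, held 235 Sham and 180 TBI cells, of which 97.9% (95.1 to 99.3) and 98.3% (95.2 to 99.7) had a V UMI. A precursor gate, set by a UMI of Rag1, Rag2, Igll1, Vpreb1 or Dntt, held 72 Sham and 97 TBI cells, of which 83.3% (72.7 to 91.1) and 69.1% (58.9 to 78.1) had one. The remainder, 169 and 188 cells, stood at 85.2% (78.9 to 90.2) and 84.0% (78.0 to 89.0).

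**Figure D1:**
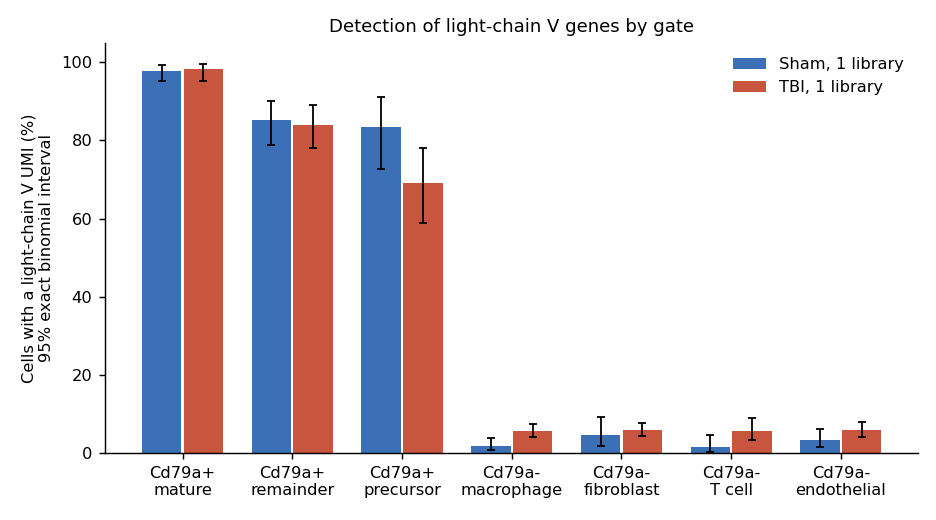
Share of cells with at least 1 light-chain V UMI (percent, y axis) in Cd79a-positive gates and in Cd79a-negative gates of other cell types (x axis), for the Sham and the TBI library; bars are shares and lines exact binomial 95% intervals. The mature gates reach 97.9% and 98.3%, the precursor gates 83.3% and 69.1%, and no Cd79a-negative gate lies above 6.00%.

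The level also differed between the gates. Cells of the mature gate held a median of 43 V UMIs in Sham and 40.5 in TBI, and those of the precursor gate a median of 4 and 3. Thinned to 1000 UMIs per cell, which left out 5 and 3 shallower precursor cells and 16 and 9 mature cells, the shares were 68.7% (56.2 to 79.4) and 58.5% (47.9 to 68.6) in the precursor gate and 98.6% and 97.7% in the mature gate. The lower overall share of the TBI library went together with more precursor-gate cells, 97 against 72, which made up 30 of the 63 TBI cells and 12 of the 42 Sham cells without a V UMI. Of the cells with a single Cd79a UMI, 27 of 36 in TBI and 20 of 26 in Sham had no V UMI. Without the precursor gate the shares were 92.6% in Sham and 91.0% in TBI. With all gates kept and cells thinned to 1000 UMIs, the shares were 90.7% (87.5 to 93.2) in Sham and 82.8% (78.9 to 86.2) in TBI. These intervals did not overlap, and the cause was not tested.

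V UMIs were also found, at a low level, in cells that should lack them, and this level was taken as the background. Among Cd79a-negative cells, 41 of 1567 Sham cells (2.62%, 1.88 to 3.53; median 2500 UMIs) and 190 of 3308 TBI cells (5.74%, 4.98 to 6.59; median 2630.5 UMIs) had a V UMI, mostly a single one. The shares ranged from 1.61% in T cells to 4.67% in fibroblasts of the Sham library and from 5.75% in macrophages to 6.00% in fibroblasts of the TBI library. Every Cd79a-positive gate lay well above its library's background. With at least 2 UMIs of 1 gene asked for, the Cd79a-negative shares were 0.128% (0.0155 to 0.460) and 0.363% (0.188 to 0.633), against 85.1% (81.6 to 88.2) and 80.4% (76.5 to 83.9) in the Cd79a-positive cells. The background was uneven between genes in the TBI library: Igkv17-121 gave 108 of its 223 background UMIs and Igkv3-7 gave 27, whereas Iglv1 gave 14. A single Cd79a-negative TBI cell held 18 UMIs of Igkv10-96. The source of the background was not tested. The 4 TBI cells assigned to Igkv17-121 held a median of 1 UMI of it, against 68 in the 5 Sham cells. The most in 1 Cd79a-positive TBI cell was 62 UMIs. Whether background led to any of these assignments was not tested, and results without this gene are given in the closing section.

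A cell was assigned to its top V gene when 1 gene had more UMIs than any other. This gave 418 Sham and 393 TBI cells, while 16 and 9 cells were tied, 12 and 6 of them at 1 UMI, and were given to no gene. The median count of the top gene was 39 UMIs in Sham cells and 30 in TBI cells, and it held a median of 97.5% and 97.0% of a cell's V UMIs. It was supported by at least 10 UMIs in 354 and 311 cells and by a single UMI in 17 and 22. The highest value in 1 cell was 207 UMIs of Igkv1-117 in the Sham library and 199 UMIs of Igkv12-44 in the TBI library.

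Use of the V genes was broad and similarly even in both libraries. Of the 163 genes, 80 were the top gene of a Sham cell and 79 of a TBI cell. In all, 71 genes were used in both, which is 88.8% of the Sham and 89.9% of the TBI genes, 9 were used in Sham alone (by 6 cells at most) and 8 in TBI alone (by 4 cells at most). Of the 75 genes used in neither, 53 had no UMI in any Cd79a-positive cell and 22 had UMIs but led no cell. The effective number of genes, taken as the inverse Simpson index, which is the number of equally used genes that would give the same chance of drawing 1 gene from a pair of cells, was 34.5 in Sham and 34.8 in TBI. Pielou's evenness, which is 1 when all used genes have equal cells, was 0.901 and 0.909. In 393 cells drawn from the Sham library 78.8 genes were expected (Hurlbert rarefaction), beside the 79 of the TBI library. The indices of the libraries lay close together, with no test of their difference.

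**Figure D2:**
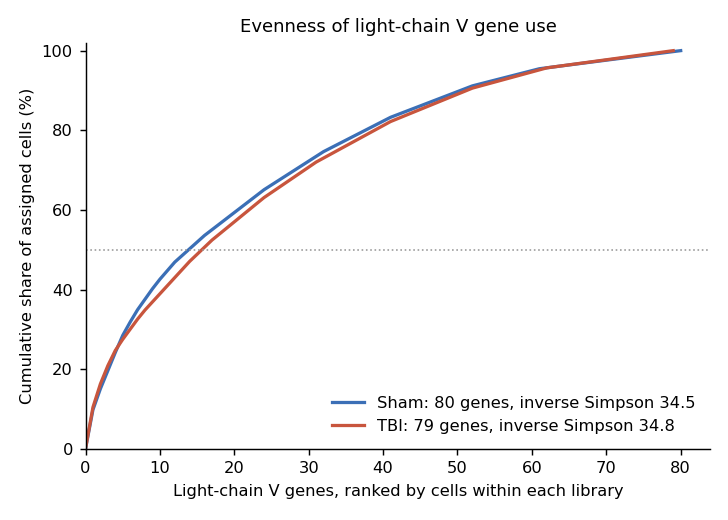
Cumulative share of assigned cells (percent, y axis) over the light-chain V genes ranked by cells within each library (x axis), 1 line per library. The lines run close together, and the dotted line marks 50% of cells, reached with 14 genes in Sham and 16 in TBI.

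A minority of the genes accounted for much of the use. The first 14 genes covered 50% of the Sham cells and the first 16 covered 50% of the TBI cells. The 10 leading genes, ranked over both libraries, held 175 of 418 Sham cells (41.9%, 37.1 to 46.8) and 143 of 393 TBI cells (36.4%, 31.6 to 41.4). Ranked within each library, the first 10 held 42.6% and 38.9%, and 5 genes were in both of these rankings when ties were broken by UMIs. In TBI the last 2 of the 10 places fell among 6 genes tied at 8 cells, and other ways of breaking the tie gave 4 to 6 shared genes. At the other end, 19 genes in Sham and 17 in TBI were the top gene of a single cell.

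Lambda held the same number of cells in each library. The 3 lambda genes were the top gene of 57 of 418 Sham cells (13.6%, 10.5 to 17.3) and 57 of 393 TBI cells (14.5%, 11.2 to 18.4), and the 160 kappa genes of 361 and 336. Over both libraries, lambda had 38 cells per member against 4.36 for kappa, whose members include all 60 pseudogenes. Of the lambda genes, Iglv1 led 82 cells, Iglv2 20 and Iglv3 12, while the most used kappa gene, Igkv1-135, led 41. With lambda set aside, the inverse Simpson index of the kappa genes was 40.1 in Sham and 43.3 in TBI.

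Iglv1 was the most used of all light-chain V genes in both libraries. It led 41 Sham cells (9.81%, 7.13 to 13.1) and 41 TBI cells (10.4%, 7.59 to 13.9), with medians of 49 and 43 UMIs in the cells it led. Iglv2, its near copy, led 9 Sham cells (2.15%, 0.989 to 4.05) and 11 TBI cells (2.80%, 1.41 to 4.95). Iglv3, the most divergent of the lambda genes, with 57.7% identity to Iglv1, led 7 (1.67%, 0.676 to 3.42) and 5 (1.27%, 0.414 to 2.94). Their order was the same in both libraries, and the intervals of Iglv2 and Iglv3 overlapped while that of Iglv1 lay above both. The order differed when any UMI was counted. Iglv3 was then found in 104 of 476 Sham (21.8%) and 77 of 465 TBI (16.6%) Cd79a-positive cells. Iglv1 was found in 78 (16.4%) and 71 (15.3%).

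The lambda share by gate ran from 9.78% to 21.2%. It was 11 of 52 assigned cells in the Sham precursor gate (21.2%, 11.1 to 34.7) and 12 of 63 in the TBI precursor gate (19.0%, 10.2 to 30.9). In the mature gate it was 22 of 225 (9.78%, 6.23 to 14.4) and 21 of 177 (11.9%, 7.50 to 17.6), and in the remainder 24 of 141 (17.0%, 11.2 to 24.3) and 24 of 153 (15.7%, 10.3 to 22.4). The precursor value was above the mature value in both libraries, with overlapping intervals in each. The top gene of precursor-gate cells rested on fewer UMIs, a median of 8.5 in Sham and 9 in TBI, against 42 and 33 in the mature gate. Iglv1 followed the same order, with 17.3% and 15.9% in the precursor gates and 6.22% and 8.47% in the mature gates. At an equal number of 52 cells, 33.0 genes were expected in the Sham precursor gate and 32.0 in the Sham mature gate, and 32.6 and 33.4 in the TBI gates.

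Several of the leading kappa genes had more Sham than TBI cells. Igkv10-96 led 22 Sham cells (5.26%, 3.33 to 7.86) and 8 TBI cells (2.04%, 0.883 to 3.97). Igkv12-44 led 19 Sham cells (4.55%, 2.76 to 7.01) and 6 TBI cells (1.53%, 0.562 to 3.29). Igkv9-120 led 14 (3.35%, 1.84 to 5.56) and 4 (1.02%, 0.278 to 2.59), the lowest ratio of TBI over Sham share, 0.304, among the 39 genes with at least 8 cells. Igkv6-15 was the last of the 4 genes with the lowest ratios, at 11 cells (2.63%, 1.32 to 4.66) and 5 (1.27%, 0.414 to 2.94).

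At the other end, the 4 genes with the highest ratio lie between 354 and 902 kb from Igkc. The 4 with the lowest ratio lie at 319 kb (Igkv6-15), 911 kb (Igkv12-44), 2094 kb (Igkv10-96) and 2676 kb (Igkv9-120). Igkv6-23 led 3 Sham cells (0.718%, 0.148 to 2.08) and 8 TBI cells (2.04%, 0.883 to 3.97), a ratio of 2.84. Igkv6-17 led 4 (0.957%, 0.261 to 2.43) and 10 (2.54%, 1.23 to 4.63), a ratio of 2.66. For Igkv5-43 the cells were 4 and 8, and for Igkv8-24 they were 6 and 10. These 8 genes were named for the extremes of their ratio, so their differences are a description, and each rests on 8 to 22 cells in its higher library. The Sham and TBI intervals overlapped for all 88 members that led a cell in either library. Many of these rest on few cells and have wide intervals, so overlap does not show that their shares are alike.

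**Figure D3:**
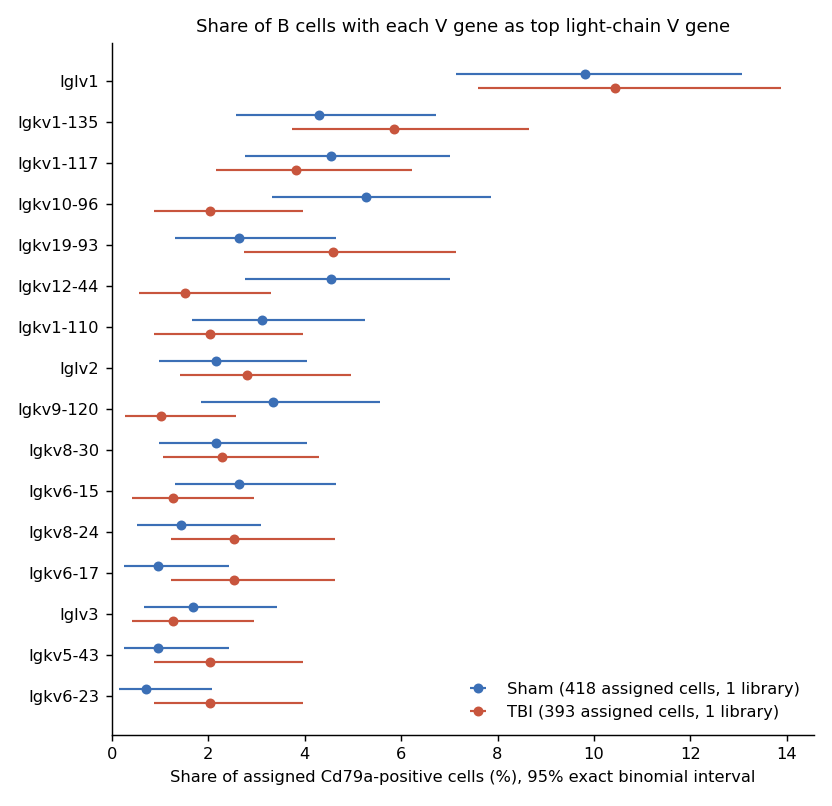
Share of assigned Cd79a-positive cells whose top light-chain V gene is the gene named on the y axis (percent, x axis), for Sham (418 cells) and TBI (393 cells); points are shares and lines exact binomial 95% intervals, 1 library each. Iglv1 lies at 9.81% and 10.4%, above every other gene, and the Sham and TBI intervals of all 16 genes overlap.

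The other leading genes were as common or more common in TBI cells, or differed by a few cells. Igkv1-135, the second most used gene, led 18 Sham cells (4.31%, 2.57 to 6.72) and 23 TBI cells (5.85%, 3.75 to 8.65). Igkv19-93 led 11 (2.63%, 1.32 to 4.66) and 18 (4.58%, 2.74 to 7.14). Igkv8-30 led 9 cells in each library. Igkv1-117 led 19 and 15 cells, and its close copy Igkv1-110 led 13 and 8, so that the pair held 32 and 23. Over all 163 genes the shares in the libraries went together, with a Pearson correlation of 0.877 (0.798 without Iglv1) and a Spearman correlation of 0.859. This is a description across genes, which are not independent replicates, and the many genes with no cell in either library enter it.

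By family, the number before the hyphen in the symbol, 20 families were used in each library with lambda genes counted singly, and the effective number of families was 12.8 in Sham and 12.7 in TBI. Igkv1 was the most used, with 57 Sham cells (13.6%, 10.5 to 17.3) and 56 TBI cells (14.2%, 10.9 to 18.1) from 13 members. Igkv4, the largest family with 33 members, followed with 51 (12.2%, 9.22 to 15.7) and 40 (10.2%, 7.37 to 13.6), which is 2.76 cells per member against 8.69 for Igkv1. Igkv8 led 29 Sham cells (6.94%, 4.70 to 9.81) and 40 TBI cells (10.2%, 7.37 to 13.6). Igkv12 led 38 (9.09%, 6.51 to 12.3) and 21 (5.34%, 3.34 to 8.05), and Igkv10 led 27 (6.46%, 4.30 to 9.26) and 13 (3.31%, 1.77 to 5.59). Igkv10-96 led 22 of the 27 and 8 of the 13 Igkv10 cells, whereas Igkv12-44 led 19 of the 38 Igkv12 cells in Sham but 6 of the 21 in TBI, as many as Igkv12-46. The single-member families Igkv7, Igkv18 and Igkv20 led no cell in either library (0 of 418 and 0 of 393 cells, upper interval limits of 0.879% and 0.934%).

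Position along the locus was examined because the kappa genes rearrange by deletion or inversion over a long stretch. Ranked by distance from Igkc, the 160 genes were cut into a near section (54 genes, 22.3 to 1077 kb), a middle section (53 genes, 1094 to 1990 kb) and a far section (53 genes, 2013 to 3170 kb). The middle section was used least in both libraries, with 72 of 361 Sham kappa cells (19.9%, 15.9 to 24.4) and 68 of 336 TBI kappa cells (20.2%, 16.1 to 24.9). The near section held 140 (38.8%, 33.7 to 44.0) and 143 (42.6%, 37.2 to 48.0), and the far section 149 (41.3%, 36.1 to 46.5) and 125 (37.2%, 32.0 to 42.6). The sections differ in content, since 11 near, 25 middle and 24 far genes are pseudogenes. With the cells of functional genes alone, counted per functional gene over both libraries, the middle section was again lowest at 4.89 cells, against 6.56 in the near and 9.45 in the far section.

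**Figure D4:**
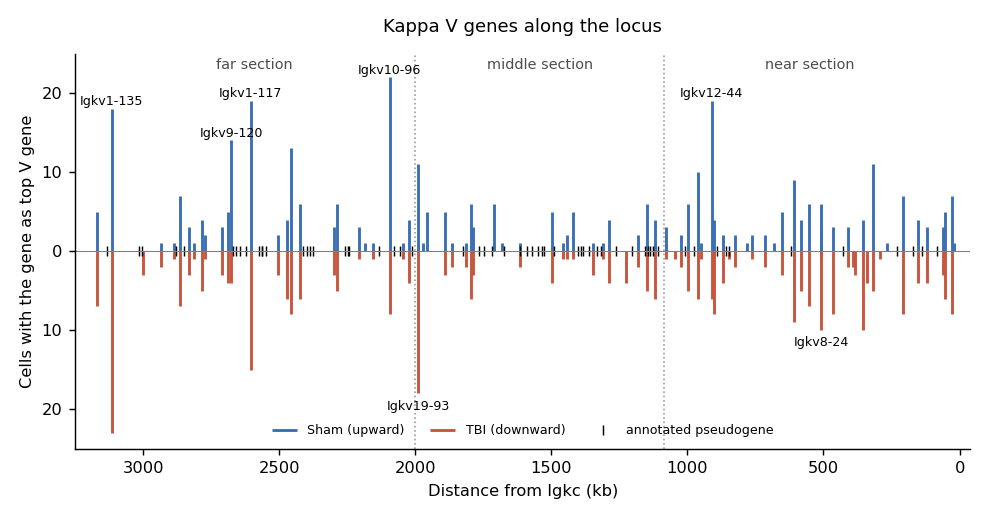
Number of cells with each kappa V gene as top gene (y axis, Sham upward and TBI downward) against the distance of the gene from Igkc in kb (x axis), with pseudogenes as black ticks and section limits as dotted lines. Tall lines stand at Igkv1-135, Igkv1-117 and Igkv10-96 in the far section and at Igkv12-44 in the near section, and the middle section holds 19.9% of the Sham and 20.2% of the TBI kappa cells.

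The order of the near and far sections varied between gates and libraries, with no test of the difference. Their intervals overlapped in every gate except the TBI mature gate, where the near section lay above the far section. In the mature gate the far section held 43.8% (36.9 to 51.0) of the 203 Sham kappa cells and 30.8% (23.6 to 38.6) of the 156 TBI kappa cells, and the near section 37.4% (30.8 to 44.5) and 48.1% (40.0 to 56.2). In the precursor gate the far section held 31.7% (18.1 to 48.1) of 41 Sham and 49.0% (34.8 to 63.4) of 51 TBI kappa cells, and the near section 48.8% (32.9 to 64.9) and 39.2% (25.8 to 53.9). In the remainder the far section held 40.2% and 40.3% and the near section 37.6% and 37.2%. Orientation was compared per gene with pseudogenes counted in, and functional genes were not counted apart. The 85 genes that point opposite to Igkc led 204 Sham and 182 TBI cells, 4.54 per gene over both, and the 75 genes in the same direction led 157 and 154, 4.15 per gene. At least 1 cell was led by 53 of the 85 and by 32 of the 75.

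Use was nearly confined to genes annotated as functional. Of the 103 functional genes, 86 led at least 1 cell, and of the 60 pseudogenes, 2 did. Pseudogenes were the top gene of 1 of 418 Sham cells (0.239%, 0.00606 to 1.33) and 3 of 393 TBI cells (0.763%, 0.158 to 2.21). The 2 pseudogenes, named here after their values were seen, were Igkv4-77 with 3 cells and 27 UMIs and Igkv12-40 with 1 cell and 28 UMIs over both libraries. Of the 17 functional genes that led no cell, Igkv6-29 had the most UMIs, 26, and 52.0% of its windows were its own, its copy being Igkv6-20.

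The V segment lies at the 5′ end and the constant exon at the 3′ end of a light-chain transcript, and the constant genes gave far fewer UMIs than the V genes. In the Sham cells, 22626 V UMIs stood beside 2407 of Igkc, 947 of Iglc1, 1955 of Iglc2 and 1666 of Iglc3. In the TBI cells, 17150 V UMIs stood beside 1911, 648, 1527 and 1289. The V genes made up 1.41% of all UMIs of the Sham and 1.17% of those of the TBI Cd79a-positive cells. A 3′ library is read from the end that holds the constant exon, and the counts stand the other way. The cause was not tested, nor were the labelled chemistry and the constant gene models used for counting. Levels of V and constant genes are therefore not set against each other as expression.

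Igkc differed between kappa and lambda cells far more than the summed lambda constant genes did. Igkc was found in 93.9% (90.9 to 96.1) of Sham and 90.8% (87.2 to 93.6) of TBI cells led by a kappa gene, with a median of 4 UMIs in each. In cells led by a lambda gene it was found in 43.9% (30.7 to 57.6) and 33.3% (21.4 to 47.1), with a median of 0. Iglc1 to Iglc3 together were found in 88.6% (84.9 to 91.7) and 86.0% (81.8 to 89.5) of kappa cells and in 93.0% (83.0 to 98.1) and 89.5% (78.5 to 96.0) of lambda cells. Their medians were 9 and 7 UMIs in kappa cells and 9 and 6 in lambda cells. Iglc1 alone was less common in kappa cells, at 53.2% and 50.6%, than in lambda cells, at 86.0% and 73.7%, whereas Iglc3 was more common in kappa cells, at 85.0% and 79.5%, than in lambda cells, at 63.2% and 64.9%. These genes were found in few Cd79a-negative cells. Igkc was found in 1.02% of Sham and 2.27% of TBI Cd79a-negative cells. Each of the 3 lambda constant genes was found in at most 1.33% of Cd79a-negative cells of either library.

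**Figure D5:**
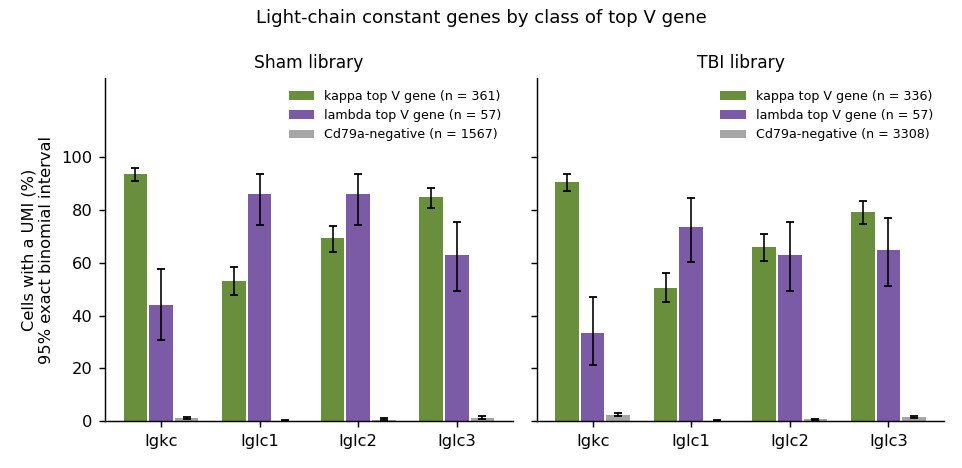
Share of cells with a UMI of Igkc, Iglc1, Iglc2 or Iglc3 (percent, y axis) in cells led by a kappa or a lambda V gene and in Cd79a-negative cells, 1 panel per library; bars are shares and lines exact binomial 95% intervals. Igkc stands at 93.9% and 90.8% in kappa cells against 43.9% and 33.3% in lambda cells, while Iglc2 and Iglc3 are found in most cells of both classes.

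Reading the chain from the constant genes gave another answer than the V genes. The summed Iglc1 to Iglc3 UMIs exceeded Igkc in 228 of 361 Sham cells led by a kappa gene (63.2%, 58.0 to 68.1) and in 49 of 57 led by a lambda gene (86.0%, 74.2 to 93.7). In TBI these were 212 of 336 (63.1%, 57.7 to 68.3) and 50 of 57 (87.7%, 76.3 to 94.9). For this reason the constant genes were not used to divide kappa from lambda cells. The cause was not tested.

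A second V gene was common at low level and rarer at high level. Of the assigned cells, 60.3% in Sham and 59.5% in TBI had at least 1 UMI of a second light-chain V gene, and 92 Sham cells (22.0%, 18.1 to 26.3) and 94 TBI cells (23.9%, 19.8 to 28.5) had at least 5. In these cells the top gene had a median of 53 and 44 UMIs and the second a median of 21.5 and 14. The second gene was at least 90% identical to the first in 4 Sham and 8 TBI cells. The depth of cells with such a second gene, a median of 3126.5 and 2808.5 UMIs, was close to that of the others, 3227.5 and 2692 UMIs. Markers of another cell type were present in 7 of 92 and 15 of 94 of them, against 26 of 326 and 38 of 299 of the others.

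Cells with V genes of both classes were counted by the class of the top gene. Among cells led by a lambda gene, 17 of 57 in Sham (29.8%, 18.4 to 43.4) and 14 of 57 in TBI (24.6%, 14.1 to 37.8) had at least 5 UMIs of a kappa V gene. Among cells led by a kappa gene, 8 of 361 (2.22%, 0.961 to 4.32) and 11 of 336 (3.27%, 1.65 to 5.78) had at least 5 UMIs of a lambda V gene, and 60 cells in each library had at least 5 of another kappa gene. These shares have no common base, since kappa genes led most cells of both libraries. As single pairs of top and second gene, Iglv1 with Iglv3 was the most frequent in Sham (5 cells, 2 in TBI). In TBI it was Iglv1 with its near copy Iglv2 (5 cells, 3 in Sham), and 2 more TBI cells had Iglv2 on top of Iglv1. By class, both genes were lambda in only 9 Sham and 11 TBI cells. They were kappa and lambda in 25 and 24 cells, and both kappa in 58 and 59.

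The pairing with heavy chains was scattered. The top heavy-chain V gene, chosen among 185 Ighv features by the same rule, was known in 402 Sham and 370 TBI assigned cells, which formed 365 and 336 different pairs of heavy and light V gene. Of these, 335 and 306 were seen in 1 cell, and the most frequent pair was seen in 3 Sham cells and in 4 TBI cells. The 39 Sham cells led by Iglv1 used 27 heavy-chain genes and the 38 TBI cells used 26. The 17 Sham and 18 TBI cells led by Igkv1-135 used 13 and 15. For the 20 Sham cells led by Igkv10-96, 18 heavy-chain genes were found, with no pair in more than 2 cells.

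As summed levels, the V genes together stood at 14102 CPM (UMIs per 1000000 UMIs; 13918 to 14287, exact Poisson interval) in Sham and 11738 CPM (11563 to 11916) in TBI, a log2 ratio of TBI over Sham of -0.26. These intervals treat each UMI as independent, but 1 cell held up to 247 V UMIs in Sham and 199 in TBI. They therefore do not cover the spread between cells. The 94 members with at least 10 UMIs over both libraries had a median log2 ratio of -0.16, beside 0.09 over all 10652 genes with as many UMIs. At least 2-fold higher in TBI were 18 of the 94 (19.1%), where 8.56% of all genes were, and at least 2-fold lower were 23 (24.5%), where 2.13% of all genes were. UMIs of a V gene come from few cells: the median member was found in 10.5 cells with 25.6% of its UMIs in 1 cell, while the median of 4659 other genes with like UMI sums was found in 127 cells with 2.20% in 1 cell. Of those 4659 genes, 1.63% were at least 2-fold higher and 0.451% at least 2-fold lower. They were limited to UMI sums of 73.5 to 515.75, while the 94 members were taken from 10 UMIs up. The shares of the 94 members and of the 4659 genes are therefore not at like counts.

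The levels of single genes did not always move with their cells. Iglv1 stood at 1584 CPM in Sham and 1590 CPM in TBI. Igkv1-135, with more TBI than Sham cells, stood at 914 and 783 CPM, and Igkv19-93, likewise with more TBI cells, at 438 and 390 CPM. Igkv10-96 stood at 462 and 188 CPM, Igkv12-44 at 795 and 320 CPM, Igkv9-120 at 540 and 149 CPM and Igkv6-15 at 634 and 243 CPM. Igkv6-17 stood at 112 and 383 CPM. These last 5 genes had their higher level in the library with more of their cells. They were named for extreme share ratios, and the same UMIs assigned the cells, so this is no separate support for their differences. Of the 94 members, 4 had no UMI in the Sham and 3 none in the TBI cells, and the median log2 ratio was also -0.16 with these set to a floor of 3 UMIs. In the 87 others the log2 ratio ran from -4.30 for Igkv9-123 to 5.26 for Igkv14-130, both named here after their values were seen. Igkv9-123 had 75 Sham UMIs, 72 of them in 1 cell, and 3 TBI UMIs. Igkv14-130 had 2 Sham UMIs and 87 TBI UMIs, 43 of them in 1 cell. Both ratios therefore rest on a count at or under the floor of 3 UMIs and on few cells.

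A list of recombination, repair, surrogate light chain and transcription factor genes was read from the same cells. Of the 26 listed, 25 had at least 10 UMIs, and their median log2 ratio of TBI over Sham was 0.17, beside 0.09 over all genes. At least 2-fold higher in TBI were 3 (12.0%), near the 8.56% of all genes, and at least 2-fold lower were 0, beside 2.13% of all genes. The 3 were Dntt, the polymerase that adds untemplated bases at junctions, had 24 UMIs in Sham and 136 in TBI cells (log2 ratio 2.61), Rag2, a subunit of the recombinase, had 42 and 91 (1.24), and Igll1, a surrogate light chain, had 175 and 352 (1.14). Rag1, the partner of Rag2 in the recombinase, had 107 and 112 UMIs (0.20), and Vpreb1, a surrogate light chain component, had 190 and 282 (0.70). These 5 genes define the precursor gate, which held 72 Sham and 97 TBI cells. The related Vpreb2 had the lowest log2 ratio of the list, with 28 and 16 UMIs (-0.65), and Vpreb3 had 3228 and 3068 (0.06).

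Of the repair genes that process and close the broken ends, 4 had positive log2 ratios, as had 6366 of all 10652 genes. They were Prkdc at 0.57, Dclre1c at 0.49, Xrcc6 at 0.40 and Lig4 at 0.39, each above the upper quartile of 0.38 over all genes. Xrcc5 stood at -0.04, and Nhej1, with 0 UMIs in Sham and 3 in TBI, had too few for a ratio. Prkdc, Lig4 and Dclre1c rest on 28 to 55 UMIs per library. The transcription factors that act on light-chain loci lay between -0.36 and 0.29, with Pax5 at -0.30, Irf4 at 0.17, Irf8 at -0.06, Spib at 0.02, Spi1 at -0.02 and Pou2af1, the octamer coactivator, at 0.29. The constant genes lay at -0.20 (Igkc), -0.41 (Iglc1), -0.22 (Iglc2) and -0.23 (Iglc3), near the log2 ratio of -0.26 of the summed V genes. In these sums, fewer cells of a type and less RNA per cell cannot be told apart.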

How the data were processed

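Single-cell RNA-seq was measured in 2 libraries of sorted live cells from mouse dorsal meninges, 1 Sham and 1 TBI, each pooled from 5 mice. The deposited tables hold UMI counts for each gene in each barcode, which the authors made with Cell Ranger on mm10. The submitters' processing notes name version 2.1.1 and the matrix header 3.1.0. The sources used here name no annotation release. The counts were not normalized, and barcodes outside the study's filters are present (2699 and 4349 barcodes, 9527334 and 15011079 UMIs).

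Cells with 150 to 5000 detected genes, at most 20% mitochondrial and at most 5% hemoglobin UMIs were kept. Doublets were limited by the singlet gate at sorting and the upper limit of genes, no caller was run, and an alternative left out cells with markers of other types. Each Cd79a-positive cell was given to the light-chain V gene with most UMIs. Genes matching Igkv or Iglv and a digit were the members. The macrophage and fibroblast gates asked for 2 or more UMIs of 3 marker genes in Cd79a-negative cells, and T cell and endothelial gates were added after the data were seen. Sections and orientation come from GENCODE vM21 positions, and identity is 100% minus the edit distance of the shorter transcript within the longer, as a share of the shorter. Ratios used summed UMIs as CPM of the Cd79a-positive cells with 0.5 added to each sum, for genes with at least 10 UMIs. With 1 library per condition no test between conditions was possible. The intervals depend on the number of cells, and 3 UMIs correspond to 1.87 CPM in Sham and 2.05 CPM in TBI.

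The genes named were the 10 with most cells, every Iglv gene, and the 4 highest and 4 lowest share ratios among genes with at least 8 cells. Also named were the genes with most UMIs in 1 cell, the constant genes and the most alike pair. The list of recombination, repair, surrogate light chain and transcription factor genes was named as well. The members and lists were chosen with earlier results of these data known. Assignment was tested on simulated cells with 1 true V gene and low background, without a strong second V gene or reads shared between copies. Ratios were tested on UMI sums drawn independently, without UMIs gathered in few cells. The simulations therefore do not cover these features of the data. Python 3.11.15, numpy 2.4.6, scipy 1.17.1, pandas 2.3.3, edlib 1.3.9.post1 and matplotlib 3.10.9 were used. Cells of 1 library share mice and are not replicates. Alternatives changed 1 setting at a time, and recombination signals and promoters were not analysed here.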

Additional observations from a re-analysis of the deposited data

Results flagged for a closer look

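Light-chain V UMIs were also present in barcodes that the main comparisons do not use. Of the Cd79a-positive barcodes outside the cell filters, 9 of 23 in Sham (39.1%, exact binomial 95% interval 19.7 to 61.5) and 5 of 9 in TBI (55.6%, 21.2 to 86.3) had a V UMI, with 588 and 133 V UMIs in all. Of these barcodes, 22 in Sham and 8 in TBI exceeded the hemoglobin limit. Counting them left the shares of lambda and of the leading genes within their intervals.

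In Cd79a-negative cells, Igkv17-121 had 10 UMIs in 9 of 1567 Sham cells (0.574%, 0.263 to 1.09) and 108 UMIs in 100 of 3308 TBI cells (3.02%, 2.47 to 3.66). This was above the level of every other light-chain V gene in those cells, of which Iglv3 came next in Sham with 4 UMIs and Igkv3-7 in TBI with 27. In TBI it was found at a like share in 4 gates of other types, 3.71% of macrophage-gate, 3.32% of fibroblast-gate, 3.96% of T cell-gate and 2.83% of endothelial-gate cells, and in 4.52% of Cd79a-positive cells. Over both libraries its background UMIs came to 22.3% of its 528 UMIs in Cd79a-positive cells, against 0.308% for Iglv1, the most used gene. Igkv17-121 is 97.5% identical to Igkv17-127, and their last 98 coding bases differ by T15C, T44C and T91A, shown in capitals (chromosome 6, plus strand, GRCm38, 68037221 to 68037318 and 67861562 to 67861659).
Igkv17-121: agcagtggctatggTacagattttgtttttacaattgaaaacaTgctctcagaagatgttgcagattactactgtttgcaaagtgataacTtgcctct
Igkv17-127: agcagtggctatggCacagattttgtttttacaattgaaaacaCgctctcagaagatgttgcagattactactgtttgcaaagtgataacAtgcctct
The source of these UMIs was not tested.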

How the results depend on the processing

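No paired analysis was possible because each condition is 1 library and the conditions share a single replicate number, and for the same reason no library could be left out. The median log2 ratio of the V genes was negative in all 9 alternatives (-0.26 to -0.08), and the counts at least 2-fold higher (17 to 24) and lower (21 to 31) stayed within 1.5 times. The share of cells with a V UMI moved beyond its interval with 2 or more Cd79a UMIs (95.1% in Sham, 91.6% in TBI). In TBI it also moved without the precursor gate (91.0%) and thinned to 1000 UMIs (82.8%), while the thinned Sham share of 90.7% stayed within its interval. The lambda share moved to 69.4% in Sham and 68.8% in TBI when read from constant genes, among cells in which these differ, and to 18.9% in TBI in summed UMIs. Other alternatives left it between 12.6% and 15.8%, including those without cells with markers of other types (14.0% and 14.4%) and, added after seeing the data, without Igkv17-121 and Igkv3-7 (14.7% and 14.9%). Inverse Simpson indices were 25.4 and 26.2 in summed UMIs, 12.8 and 12.7 over families by construction, and 30.9 in Sham for cells with at least 10 UMIs of the top gene, added after seeing the data. The leading 10 genes held 47.9% of summed V UMIs in Sham. The causes were not tested. With 418 and 393 assigned cells, counts of single genes are small, and the difference of a gene between conditions was not tested.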
